A study of Ovis aries with 14 samples.

Results

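Corin and the natriuretic peptide signalling genes were described across 14 RNA-seq libraries of whole sheep ovary. The rule takes 7 genes by name (CORIN, FURIN, NPPC, NPR1, NPR2, NPR3 and PRKG1), and 6 of them are listed by name, among 16513 genes of the fetal table, 15863 of the first adult table and 16074 of the second. All 6 are among the 15175 genes listed in all 3 tables. NPPC, which encodes the C-type natriuretic peptide, is not listed under that name in any table, so no value can be given for it. Of the rows, 12585 of the fetal table, 12205 of the first adult table and 12303 of the second carry a gene name, and rows without a name were not assigned to a gene. The set was chosen on the levels of CORIN, which had differed between testosterone and control ovaries in these same libraries, so the treatment difference of CORIN is given as a description, with its error and no p-value.

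All animals were wild-type Suffolk sheep. In the treated groups the pregnant mothers had received testosterone propionate in cottonseed oil by intramuscular injection, 2 times a week from day 30 to day 90 of gestation, and the ovaries of their female offspring were compared with those of controls. The fetal groups were taken at gestational day 90 and hold 3 control and 3 testosterone ovaries, numbered 1 to 3. The adult groups were taken at year 2 and hold 4 control and 4 testosterone ovaries, numbered 4 to 7 by the labels, while the series text counts 3 adult controls and 4 adult testosterone samples. The labels were followed. The first adult table holds controls and testosterone samples 4, 5 and 6. The second holds controls 4, 6 and 7 and testosterone samples 5, 6 and 7. The labels do not say how samples relate to mothers or litters, so the p-values speak only of the spread among the sampled ovaries. In a bulk ovary, fewer cells of a type and less RNA per cell cannot be told apart.

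Natriuretic peptides are made as precursors that are cut by serine proteases. Corin is a membrane-bound protease that cuts pro-atrial natriuretic peptide, and furin is a convertase of the secretory pathway that cuts many precursors, including that of the C-type peptide. The peptides bind guanylyl cyclase receptors, NPR1 for the atrial and brain peptides and NPR2 for the C-type peptide, which make cyclic GMP inside the cell, while NPR3 mainly binds and clears the peptides. In the ovarian follicle, C-type peptide from granulosa cells acts on NPR2 of cumulus cells, and the cyclic GMP that passes into the oocyte holds it in meiotic arrest. PRKG1 is a kinase that cyclic GMP activates, best known in smooth muscle.

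Levels below are normalized counts on a common scale of all 14 libraries, made by dividing the reads of a gene by the size factor of its library. Each library held between 22.6 and 33.4 M recovered reads. Changes are on the scale of log2 of the value plus 1. Of ovarian defining genes, the oocyte genes GDF9 and ZP2 and the granulosa genes FSHR and INHA were above 0 in all 14 libraries, while no row carries the name AMH, CYP19A1 or FOXL2. Adult control 6 and adult testosterone 4 and 7 stood apart in oxytocin (OXT, a transcript of luteal cells in the ewe), with OXT levels of 105432, 122264 and 68252. The other 11 libraries lay between 24.1 and 123. Adult control 4 stood apart in smooth muscle transcripts, with 105227 for desmin (DES) against at most 8923 in the other adults, and 102344 for transgelin (TAGLN) against at most 15436. The column of adult testosterone 5 carries a resubmission mark in its header.

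CORIN, the protease, had its highest levels in the fetal testosterone ovaries and its lowest in the adult controls. The levels of CORIN were 633, 960 and 721 in fetal controls 1, 2 and 3, and 3723, 2579 and 3495 in fetal testosterone 1, 2 and 3. Every fetal testosterone ovary was above every fetal control. CORIN was at 312, 333, 106 and 274 in adult controls 4, 5, 6 and 7, and at 474, 1293, 808 and 188 in adult testosterone 4, 5, 6 and 7. The adult groups overlapped, because testosterone 7 lay below controls 4, 5 and 7, while testosterone 4, 5 and 6 were above all 4 controls. The group means of CORIN ran from 3266 ± 605 (SD, n = 3) in fetal testosterone, through 771 ± 169 (SD, n = 3) in fetal controls and 691 ± 475 (SD, n = 4) in adult testosterone, to 256 ± 103 (SD, n = 4) in adult controls. The fetal controls and the adult testosterone ovaries, neighbours in this order, did not differ beyond their spread, since the fetal control values fell inside the adult testosterone range. The spread of CORIN was widest in the adult testosterone ovaries, where the highest level was 6.87 times the lowest, against 1.44 times in fetal testosterone. The adult controls, of the same age, also spread, from 106 to 333.

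**Figure D1:**
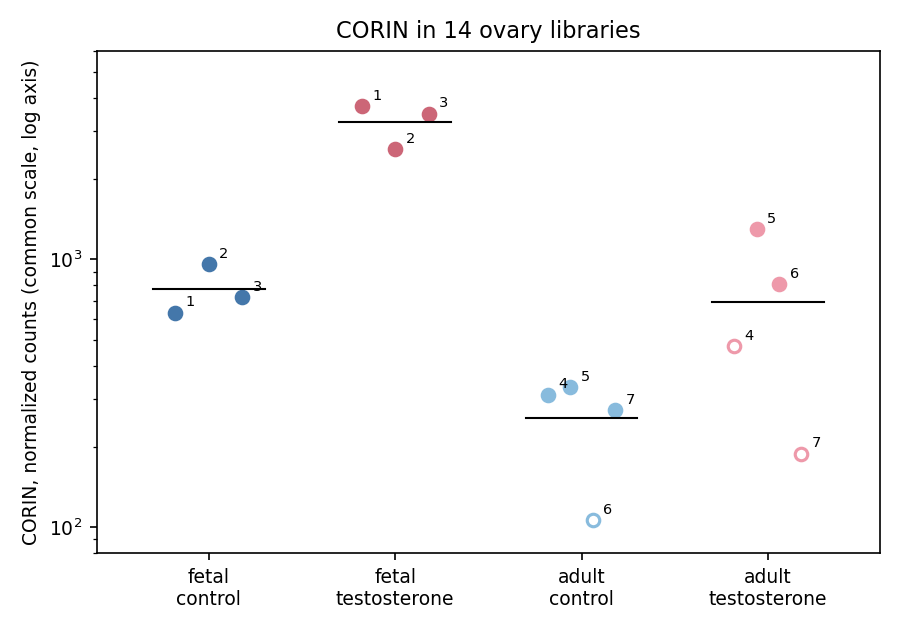
Levels of CORIN in each of the 14 ovary libraries on a log axis of normalized counts (common scale), by group, with the library number beside each point, a black line at the group mean and open circles for the 3 libraries high in OXT. The 3 fetal testosterone ovaries lie between 2579 and 3723, above the fetal controls at 633 to 960, while in the adults testosterone 7, at 188, lies within the control range of 106 to 333.

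The log2 difference of CORIN between testosterone and control was 2.09 in the fetuses (SE 0.18, 95% interval 1.67 to 2.51), which is 4.25-fold. Across the fetal table, 16.3% of all genes tested had groups that did not overlap, 8.88% with testosterone higher as for CORIN. In the first adult table the log2 difference of CORIN was 1.81 (SE 0.56) and the groups did not overlap, as for 3.57% of genes there, 1.65% with testosterone higher. In the second adult table it was 1.49 (SE 0.78) and the groups overlapped through testosterone 7, while 2.61% of genes there had groups that did not. Over all 8 adult libraries the log2 difference of CORIN was 1.24 (SE 0.62, 95% interval -0.16 to 2.63). The authors' deposited table gives CORIN log2 changes of 2.08 for the fetuses, 1.77 for the first adult table and 1.75 for the second. The 2 adult tables share control 4, control 6, testosterone 5 and testosterone 6.

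CORIN was lower in the OXT-high libraries of each adult group than in the other libraries of that group. Among the 3 OXT-high libraries the level of CORIN was 106 in control 6, and it was 474 and 188 in testosterone 4 and 7. Among the other 5 adults CORIN ranged from 274 to 333 in controls 4, 5 and 7, while testosterone 5 and 6 had 1293 and 808. The split was made after the data were seen and holds 1 OXT-high control, so it is given with no test. The OXT-high libraries also stood apart in the summed level of 9 macrophage markers, at 43740 to 46193 against 3106 to 13861 in the other adults. Their summed smooth muscle markers were the lowest of the adults, at 112830 to 124723 against 205406 or more. The part of any of these in the CORIN level was not tested. The adult log2 difference of CORIN was 1.66 with the OXT-high state as a term, 1.76 without the 3 OXT-high libraries and 1.75 without testosterone 7 alone. Over all 8 adults it was 1.24. Leaving out each of the 8 in turn gave 0.82 to 1.75, so the fit without testosterone 7 was the highest of these.

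CORIN was lower in adult than in fetal controls. This age difference did not choose the genes, but it shares its control libraries with the treatment differences that did. The log2 difference, adult control minus fetal control, was -1.69 (SE 0.42, 95% interval -2.66 to -0.72), so CORIN fell 3.23-fold (limma, adjusted p = 0.0284). Each of the 4 adult controls lay below each of the 3 fetal controls. Age and anything else that differed between fetal and adult sampling cannot be told apart. DESeq2 on the recovered reads gave an adjusted p of 0.0012 and edgeR 0.0284. The call was lost when fetal control 1, 2 or 3 was left out, with limma adjusted p of 0.0805, 0.122 and 0.0978 and log2 differences of -1.82, -1.52 and -1.73. The calls over all genes also fell, from 3175 to between 1024 and 1099, when a fetal control was left out.

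The testosterone difference of CORIN, adult minus fetal, was -0.85 on the log2 scale (SE 0.77, 95% interval -2.52 to 0.81). The interval holds no difference between the ages, an adult difference far smaller than the fetal one, and an adult difference larger than it. All groups shared the same estimate of spread in this fit, although CORIN varied more among the adults.

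FURIN, the convertase, was higher in adult than in fetal controls, and its treatment groups overlapped at both ages. The levels of FURIN were 1698, 1531 and 1640 in the fetal controls and 3038, 2973, 3688 and 2152 in adult controls 4 to 7. All 4 adult controls exceeded all 3 fetal controls. FURIN rose by 0.84 on the log2 scale from fetal to adult controls (SE 0.19, 95% interval 0.39 to 1.30), or 1.79-fold, in limma (adjusted p = 0.0223). That call was lost without fetal control 1, 2 or 3 (limma adjusted p = 0.0812, 0.104 and 0.0906) and without adult control 5 (0.0538). FURIN was at 1515, 1830 and 1794 in the fetal testosterone ovaries, a range that overlapped the fetal controls. Its fetal log2 difference by treatment was 0.077, with a 95% interval of -0.16 to 0.32 (limma, adjusted p = 0.830). In the adult testosterone ovaries 4 to 7 FURIN was at 3801, 2347, 2838 and 2458, again across the control range, with a log2 difference of -0.047 (95% interval -0.55 to 0.46).

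NPR1, the receptor of the atrial and brain peptides, had its lowest levels in the fetal ovaries, where every library lay below every adult. The levels of NPR1 were 316, 262 and 262 in fetal controls 1 to 3, and 173, 326 and 338 in fetal testosterone 1 to 3. The fetal groups overlapped, and their log2 difference was -0.062 with a 95% interval of -0.66 to 0.54 (limma, adjusted p = 0.953). NPR1 was at 3406, 489, 716 and 477 in adult controls 4 to 7, and at 944, 635, 476 and 420 in adult testosterone 4 to 7. Control 4 had 6.07 times the mean of the other 3 controls, and it is the library with the high desmin and transgelin levels. It also had the highest summed endothelial markers, 111613 against 15429 to 41527 in the other controls and at most 56894 in adult testosterone. The part of either in the NPR1 level was not tested. Every adult control was above every fetal control, with a log2 difference of 1.63 (SE 0.66, 95% interval 0.10 to 3.17) that missed the threshold in limma (adjusted p = 0.115). Without control 4 that difference was 0.98 and passed (limma, adjusted p = 0.0220). It was not called when any other single library was left out. By treatment the adult log2 difference of NPR1 was -0.56 over 8 libraries, with a 95% interval of -1.93 to 0.82, and without control 4 it was 0.10.

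NPR2, the receptor of the C-type peptide and the one described in cumulus cells, had levels that overlapped across all 4 groups. NPR2 was at 3364, 2862 and 2580 in the fetal controls and 2579, 3142 and 2677 in the fetal testosterone ovaries. In the adults NPR2 was at 3354, 2749, 2447 and 3761 in controls 4 to 7 and at 2054, 3615, 4168 and 3247 in testosterone 4 to 7. The 4 ranges of NPR2 overlapped one another, and both the lowest and the highest level were in the adult testosterone group. The group means of NPR2 lay between 2799 ± 301 (SD, n = 3) in fetal testosterone and 3271 ± 895 (SD, n = 4) in adult testosterone. The log2 differences of NPR2 were -0.063 for fetal treatment (95% interval -0.35 to 0.23), 0.065 for adult treatment (-0.51 to 0.64) and 0.057 for age (-0.38 to 0.50), and limma called none of them. These intervals exclude changes of the size seen for CORIN by treatment in the fetus.

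NPR3, the clearance receptor, had the fewest reads of the 6 genes. Over 8 adults the SE of its treatment difference was 0.55, against 0.61 for NPR1 and 0.54 for PRKG1, which had more reads. The levels of NPR3 were 40.1, 29.0 and 50.4 in the fetal controls and 30.8, 30.6 and 38.3 in the fetal testosterone ovaries. NPR3 was at 124, 43.8, 49.5 and 91.0 in adult controls 4 to 7 and at 39.6, 54.2, 115 and 26.3 in adult testosterone 4 to 7. The groups overlapped in every comparison. The log2 difference of NPR3 was -0.23 for fetal treatment (95% interval -0.91 to 0.46; limma, adjusted p = 0.825) and -0.46 for adult treatment (-1.72 to 0.79). By age NPR3 differed by 0.84, the same size as FURIN, but with a 95% interval of -0.26 to 1.94 (limma, adjusted p = 0.237).

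PRKG1, the kinase that responds to cyclic GMP, varied widely within groups, and its groups overlapped in every comparison. PRKG1 was at 509, 225 and 599 in the fetal controls and at 326, 343 and 410 in the fetal testosterone ovaries, inside the control range. PRKG1 was at 788, 287, 245 and 181 in adult controls 4 to 7 and at 209, 432, 281 and 117 in adult testosterone 4 to 7. Control 4 was again the highest, with 3.32 times the mean of the other 3 adult controls. The log2 difference of PRKG1 was -0.19 for fetal treatment (95% interval -0.95 to 0.57), -0.43 for adult treatment (-1.65 to 0.78) and -0.37 for age (-1.66 to 0.92). None was called by limma, with adjusted p of 0.869 in the fetuses and 0.664 by age.

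**Figure D2:**
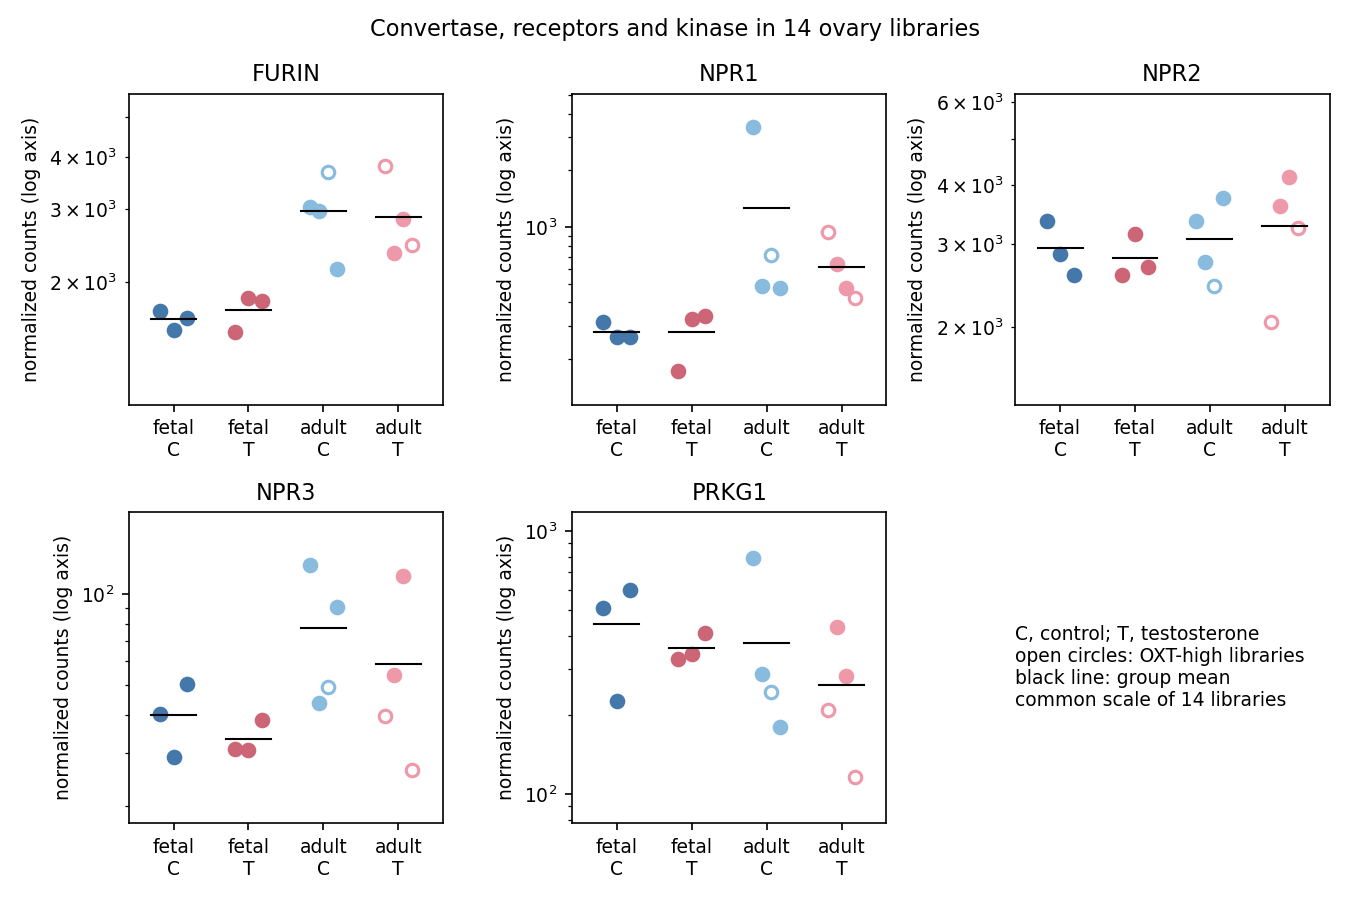
Levels of FURIN, NPR1, NPR2, NPR3 and PRKG1 in the 14 libraries on log axes of normalized counts (common scale), by group, with black lines at group means and open circles for the OXT-high libraries. FURIN and NPR1 separate adult from fetal controls, NPR2 is level, and adult control 4 is the highest NPR1 point at 3406 and the highest PRKG1 point at 788.

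By treatment in the fetuses, none of the 5 measured genes other than CORIN was called by limma, which called 0.0182% of all genes tested, or by DESeq2, which called 1.61%. In the first adult table, the second and all 8 adults none of those 5 was called by limma, which called 0.00631%, 0.00623% and 0.0127% of all genes. DESeq2, which called 0.0257%, 0.0318% and 0.0453%, called none of them either, but gave NPR1 no adjusted p over all 8 adults. At the limma shares, in fetuses and adults, a call among these 5 genes was unlikely in any case. None of the 6 had adult groups without overlap over all 8 libraries, against 0.704% of all genes. By age limma called 2 of the 6, CORIN lower and FURIN higher, against 20.9% of all genes, 9.26% higher and 11.7% lower. DESeq2 called the same 2 against 34.9% of all genes, and gave no adjusted p for NPR1. Age groups did not overlap for 3 of the 6 (CORIN lower, FURIN and NPR1 higher), against 40.5% of all genes, 19.9% higher and 20.6% lower, so the age shares of the 6 are near the background. The median log2 difference of the 6 was -0.063 for fetal treatment against -0.019 for all genes, -0.24 for adult treatment against -0.0054, and 0.45 for age against 0.029. The difference between adult and fetal treatment effects of the other 5 genes ran from -0.50 for NPR1 to 0.13 for NPR2, and limma called none of them (adjusted p = 0.9999) against 0.00659% of all genes.

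**Figure D3:**
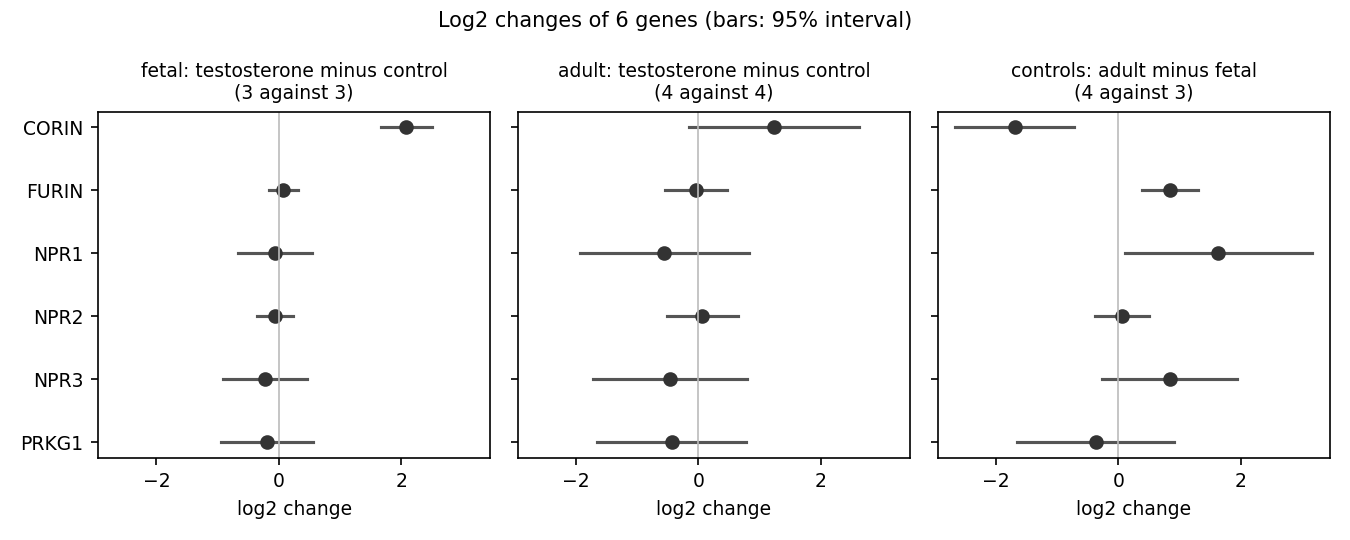
Log2 differences (points) with 95% intervals (bars) of CORIN, FURIN, NPR1, NPR2, NPR3 and PRKG1 for fetal treatment, adult treatment over 8 libraries, and age in controls. CORIN stands at 2.09 for fetal treatment, where the other 5 genes have intervals across 0, and at -1.69 for age, opposite in sign to FURIN at 0.84.

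Other genes of natriuretic peptide processing and clearance were taken from a list of 6, of which MME, IDE and PCSK6 were measured and NPPA, NPPB and OSTN are not listed by name. No value can therefore be given for the heart peptides that corin and NPR1 are best known for. MME encodes neprilysin, which degrades natriuretic peptides, and it fell with age from 1228 ± 59.6 (SD, n = 3) in fetal controls to 495 ± 247 (SD, n = 4) in adult controls, by 1.44 on the log2 scale (SE 0.36; limma, adjusted p = 0.0299). It was 1 of 3 called by age, against 20.9% of all genes. By fetal treatment all 3 were lower in testosterone, with a median of -0.19, and none was called. IDE, the insulin-degrading enzyme that also cuts natriuretic peptides, had a fetal log2 difference of -0.22 and MME one of -0.19, both without overlap of the groups (limma, adjusted p = 0.572 and 0.598), as for 16.3% of all genes. PCSK6, a convertase that activates corin, had one of -0.093 (adjusted p = 0.920). In the adults by treatment the median of the 3 was 0.014 and none was called.

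Of 24 other genes of cyclic GMP synthesis, targets and breakdown, 20 were measured in the fetal table and 19 in the adult and joined comparisons. By age limma called 4 of 19, 2 higher and 2 lower, a share close to the 20.9% of all genes. The median log2 difference of the list was 0.023 against 0.029 for all genes. They were 3 phosphodiesterases and 1 target of the kinase. PDE1C, a calcium-dependent phosphodiesterase, fell by 4.58 on the log2 scale, from 1264 ± 95 (SD, n = 3) in fetal controls to 54.4 ± 21.5 (SD, n = 4) in adult controls (limma, adjusted p = 3.76e-04). PDE10A, which breaks down both cyclic nucleotides, fell by 1.97, from 506 ± 44.7 (SD, n = 3) to 136 ± 56.4 (SD, n = 4) (limma, adjusted p = 0.00857). PDE1B rose by 1.99, from 170 ± 17.5 (SD, n = 3) to 752 ± 378 (SD, n = 4) (limma, adjusted p = 0.0168). RGS2, a regulator of G protein signalling that PRKG1 phosphorylates, rose by 1.25, from 745 ± 107 (SD, n = 3) to 1869 ± 729 (SD, n = 4) (limma, adjusted p = 0.0275).

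By fetal treatment 7 of the 20 cyclic GMP genes were higher and 13 lower in testosterone, with a median of -0.10 against -0.019 for all genes. Among them limma called 0, against 0.0182% of all genes tested, and at that share a call among 20 genes was unlikely in any case. DESeq2, which called 1.61% of all genes tested, called at least RGS2 and PDE1C of the list. RGS2 and PDE1C had the smallest p of the list. RGS2 averaged 745 ± 107 (SD, n = 3) in fetal controls and 1286 ± 167 (SD, n = 3) in fetal testosterone, a log2 difference of 0.79 (limma, adjusted p = 0.191; DESeq2, 3.55e-04). PDE1C averaged 1264 ± 95 and 757 ± 124, a log2 difference of -0.75 (limma, adjusted p = 0.191; DESeq2, 6.31e-04). PDE3A, a phosphodiesterase of the oocyte that cyclic GMP inhibits, had a log2 difference of -0.62 (limma, adjusted p = 0.334) and PDE3B one of -0.34 (0.476), both with groups that did not overlap, as for 16.3% of all genes. In the adults 5 of 19 were higher and 14 lower in testosterone, with a median of -0.17 against -0.0054 for all genes, and none was called by limma. PDE10A had the smallest p among them, with a log2 difference of 0.74 (limma, adjusted p = 0.9999).

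Of 12 genes for meiotic arrest of the oocyte, 10 were measured by fetal treatment and 9 by age. By age 7 were higher and 2 lower in adult controls, with a median of 0.95 against 0.029 for all genes, and limma called 3 of 9 against 20.9% of all genes. EGFR, the receptor through which luteinizing hormone releases the arrest, rose by 2.02 on the log2 scale from 340 ± 35.3 (SD, n = 3) to 1563 ± 945 (SD, n = 4) (limma, adjusted p = 0.0140). ADCY3, an adenylyl cyclase of the oocyte, rose by 1.22 from 959 ± 78.8 to 2424 ± 1233 (limma, adjusted p = 0.0373). IMPDH1, an enzyme of guanine nucleotide synthesis, fell by 0.66 from 2130 ± 332 to 1354 ± 234 (limma, adjusted p = 0.0451). GJA1, a gap junction protein of granulosa cells, had a log2 difference of 1.10 and missed the threshold (limma, adjusted p = 0.0619). Over the same ages the summed level of 5 germ cell and oocyte markers (DDX4, ZP2, GDF9, BMP15 and SYCP3) was 9860 to 16135 in fetal controls and 500 to 1414 in adult controls; its part in these differences was not tested. By treatment 7 of 10 were higher in fetal testosterone (median 0.12) and 4 of 10 in adult testosterone (median -0.13), and limma called none at either age. Of the 8 pathway genes called by age here and above, PDE1C kept its call when any 1 library was left out (highest limma adjusted p = 0.00683). EGFR, PDE1B and RGS2 lost it without fetal control 1, 2 or 3, and PDE10A without fetal control 1 (0.0504). MME also lost it without adult control 5, ADCY3 without adult control 5 or 6 and IMPDH1 without adult control 4 or 6, besides each fetal control.

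**Figure D4:**
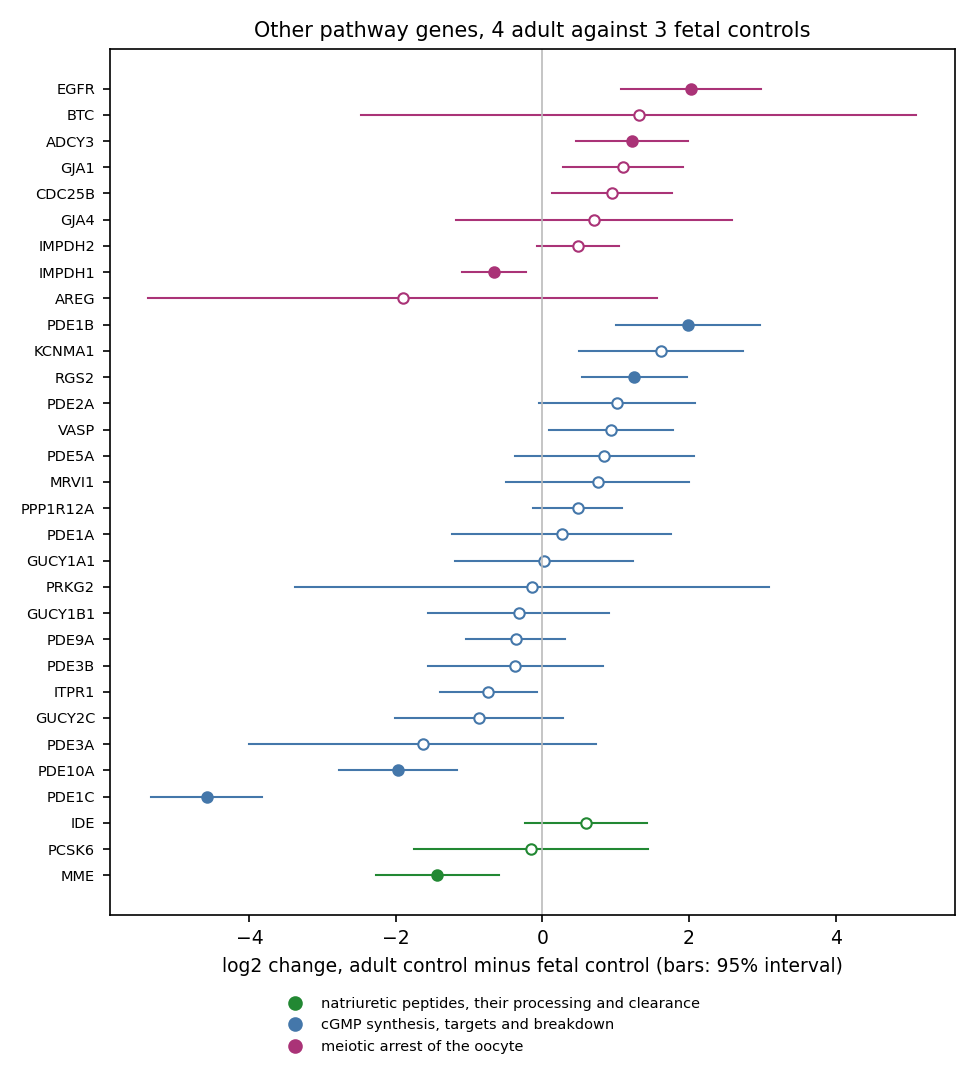
Log2 differences of the other pathway genes, adult control minus fetal control, with 95% intervals as bars, and filled points for limma adjusted p under 0.05. PDE1C at -4.58 and EGFR at 2.02 mark the ends of the range of called genes.

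Other proteases of the kinds that CORIN and FURIN belong to were compared by the same fits. Of 14 other membrane serine proteases 6 were measured in the fetal table and 3 over all 8 adults and by age, and limma called none in any comparison. TMPRSS11E had the smallest p in the fetuses, at 26.1 ± 7.02 (SD, n = 3) in controls and 97.9 ± 28.5 (SD, n = 3) in testosterone, a log2 difference of 1.86 (limma, adjusted p = 0.177; DESeq2, 4.79e-04) without overlap, as for 16.3% of all genes. ST14, which encodes matriptase, had a fetal log2 difference of -0.49 and HPN, which encodes hepsin, one of 0.18 (limma, adjusted p = 0.563 and 0.908). Of 6 other proprotein convertases 5 were measured in the fetal table and 4 elsewhere, and limma called none. PCSK7 averaged 3482 ± 981 (SD, n = 3) in fetal controls and 6247 ± 1679 (SD, n = 3) in fetal testosterone, with overlap and a log2 difference of 0.85 (limma, adjusted p = 0.356; DESeq2, 0.0349). TMPRSS11E and PCSK7 were thus called by DESeq2 in the fetuses, where it called 1.61% of all genes tested. By age PCSK7 differed by 2.76 (limma, adjusted p = 0.0603), and adult control 4 alone had 139956.

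Markers of cell types in the ovary moved with some of these groups, and their part in the values of the 6 genes was not tested. All 10 measured smooth muscle markers (of 11, LMOD1 is not listed by name) were higher in fetal testosterone, none called by limma, with summed levels of 55938 to 71582 in fetal controls and 75639 to 100740 in fetal testosterone. In the adults all 10 were lower in testosterone, again none called, with sums of 112830 to 1127568 in controls, the highest being control 4, and 121222 to 284111 in testosterone. By age all 10 were higher in adult controls, and limma called 4 of 10 (MYH11, ACTA2, CNN1 and CALD1) against 20.9% of all genes. All 4 calls were lost without fetal control 1, 2 or 3 (limma adjusted p from 0.0628 to 0.173). MYH11 and CNN1 also lost theirs without adult control 5 (limma adjusted p = 0.0816 and 0.0853) or adult control 7 (0.0687 and 0.0682). The summed level of 6 granulosa markers was 3228 to 3572 in fetal controls and 3857 to 4036 in fetal testosterone. That of 5 mesonephros and tubule markers was 1862 to 1943 in fetal controls and 1238 to 1788 in fetal testosterone. The 8 endothelial markers, of a cell type known for NPR1, summed to 12021 to 16640 in fetal controls and 11135 to 17977 in fetal testosterone, with overlap, and to 15429 to 111613 in adult controls and 22790 to 56894 in adult testosterone. No marker of these 4 lists was at 0 in any library. Of the heart muscle markers, NPPA, NPPB, MYH6 and TNNT2 are not listed by name, and the 4 measured summed to 896 to 1070 in fetal controls and 977 to 1140 in fetal testosterone.

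Genes whose levels ran most like each of the 6 across the 14 libraries, after the mean of each age was subtracted, were found by Pearson's r of log2 values among 11842 named genes. The libraries of a group share age and treatment, so r is given as a description. LRRN1 (r = 0.85), JAKMIP2 (0.85), GABRG1 (0.82), ANXA9 (0.81) and HS3ST2 (0.80) were most like CORIN. LRRN1 averaged 660 ± 287 in fetal controls and 2299 ± 349 in fetal testosterone (SD, n = 3 each), and 1898 ± 457 and 3727 ± 1990 in the adult groups (SD, n = 4 each), so that, unlike CORIN, it was higher in adult than in fetal controls. ANXA9 averaged 73.0 ± 7.55 in fetal controls and 235 ± 56.5 in fetal testosterone (SD, n = 3 each), but 104 ± 59.0 and 112 ± 64.7 in the adult groups (SD, n = 4 each). The other members had r of -0.17 (FURIN) to 0.19 (NPR2) with CORIN. Most like NPR1 were FAM198B, ITGB4 and CYYR1 (r = 0.96 each), and NPR1 had an r of 0.78 with DES and 0.69 with PRKG1. Adult control 4 was the highest library in NPR1 (3406), DES (105227) and PRKG1 (788). The r values were not computed without that library, which may carry much of them. Most like FURIN were CDIPT (0.92), SDF2 (0.91) and PSMA7 (0.91), most like NPR2 were ASAP3 (0.94), COL27A1 (0.93) and ARHGEF40 (0.91), most like NPR3 were SREBF1 (0.92), CAPN5 (0.91) and BACE1 (0.90), and most like PRKG1 were PID1 (0.95), SGMS1 (0.95) and SYDE1 (0.93).

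By fetal treatment limma called none of the measured genes beside CORIN on its chromosome, against 0.0182% of all genes tested. At that share a call among so few genes was unlikely in any case. Of the 5 protein-coding neighbours on each side, by the order of genes in the RefSeq annotation of assembly ARS-UI_Ramb_v3.0, 7 of 10 were measured in the fetal table, with log2 differences from -0.31 to 0.35 and a smallest limma adjusted p of 0.702. The direct neighbours, ATP10D and NFXL1, had fetal log2 differences of -0.11 and 0.016. By adult treatment 7 of the 10 were measured, from -0.14 to 1.32, and none was called by limma, against 0.0127% of all genes. By age 6 were measured, with log2 differences from -1.46 (TXK) to 1.42 (TEC), and limma called 1 of 6, TXK (adjusted p = 0.0473), against 20.9% of all genes.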

How the data were processed

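Whole-ovary RNA (500 ng per library) was read as 150-base pairs, per the labels' protocols. The submitters' processing notes name Trimmomatic 0.36 and STAR 2.5.2b. A counting program, a genome build and an annotation were not given in the sources used here. In the 3 tables that the authors deposited, each library has a signal column with the reads of a gene divided by its DESeq2 size factor. The authors also deposited log2 changes with their p-values, raw and adjusted. Every value was a whole number of reads within 0.01, or within a wider tolerance proportional to the count for large counts. Reads were therefore recovered (100% of values) and the tables joined by median-of-ratios size factors. For adult control 6 the tables differ, with 26.4 M reads against 33.4 M in the later one, and the later one was used for joined fits.

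For the main test, limma 3.58.1 under R 4.3.3 was fitted with a trend to log2(value + 1) of genes whose mean reached 10, with Benjamini-Hochberg adjusted p under 0.05 over all genes, within a table for treatment and on joined reads for all 8 adults, age and the difference between ages. DESeq2 1.42.0 and edgeR 4.0.16 were run on the recovered reads. The fits were tested on simulated data. The members and lists were chosen with earlier results of these data known. The text names all members, up to 4 genes of smallest p per list and comparison, the 5 genes most like CORIN and the 3 most like each other member. Gene lists are named in the text, and RefSeq (ARS-UI_Ramb_v3.0) gave only the order of genes. Alternatives were pseudocounts of 0.5 and 5, no filter, TMM scaling, a replicate block, control 6 from the first table, array weights by age, and leaving out each library. Alternatives on the OXT-high libraries were added after seeing the data. Sequences were not analysed here.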

Additional observations from a re-analysis of the deposited data

Results flagged for a closer look

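Adult control 4 lay far from the other 3 adult controls in NPR1, with 3406 normalized counts against 477 to 716. It was the only one of 12 groups of 4 adults (6 genes by treatment) whose most distant sample passed Dixon's 95% critical value for 4 samples, and chance passes about 1 in 20 groups. The same library was highest among adult controls in PRKG1 and in desmin, transgelin and summed endothelial markers, and the part of these in its NPR1 level was not tested.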

How the results depend on the processing

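The members kept their direction under the alternatives, leaving out 1 library aside, in all but 4 of 288 values. The exceptions were NPR3 in the first adult table, at -0.017 with DESeq2 and -0.011 with edgeR against 0.012, and, without the 3 OXT-high libraries, NPR3 at 0.014 and PRKG1 at 0.032 over 8 adults. Part of the 288 values could not change direction. Fits without the filter, with array weights by age or with a balanced replicate block keep the same differences of group means. Leaving out 1 library in turn turned the sign of log2 differences that were not called, with ranges as follows. In the fetuses NPR1 ran from -0.23 to 0.25, NPR2 from -0.16 to 0.042 and PRKG1 from -0.62 to 0.079. In the first adult table FURIN ran from -0.31 to 0.026, NPR1 from -1.23 to 0.17, NPR2 from -0.042 to 0.48, NPR3 from -0.42 to 0.50 and PRKG1 from -0.69 to 0.16. In the second FURIN ran from -0.38 to 0.0041 and PRKG1 from -0.84 to 0.22. Over 8 adults FURIN ran from -0.20 to 0.067, NPR1 from -0.85 to 0.10, NPR2 from -0.069 to 0.28 and PRKG1 from -0.73 to 0.0050. By age NPR2 ran from -0.039 to 0.16. For adult minus fetal effects NPR1 ran from -0.81 to 0.16, NPR2 from -0.0074 to 0.33, NPR3 from -0.63 to 0.065 and PRKG1 from -0.54 to 0.20. CORIN kept its sign throughout, from 1.96 to 2.26 in the fetuses and 0.82 to 1.75 over 8 adults.

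Counts over all genes depended on the tool. The fetal count was 3 with limma, 261 with DESeq2, and 0 to 13 leaving out 1 library. The first adult table gave 1, with DESeq2 4, with edgeR 0, and 0 to 0 leaving out 1 library. The second gave 1, with DESeq2 5, with edgeR 0, and 0 to 0. All 8 adults gave 2, with DESeq2 7, with edgeR 1, without the OXT-high libraries 1, and 1 to 3 leaving out 1 library. Age gave 3175, with DESeq2 5185, and 1024 to 4129. The difference between ages gave 1, with DESeq2 10. With the sample number as a replicate block the counts were 10 in the fetuses and 0 in the first adult table, the second and all 8 adults. Correlations of same-numbered deviations ran from 0.0093 to 0.40 in the fetuses and from -0.64 to 0.30 over 8 adults. Of the samples, 2 of 6 fetal and 0 of 8 adult correlated best with their own number. The labels do not say whether equal numbers mark pairs, and such correlations cannot decide it. The cause of the differences between counts was not tested. Groups held 3 or 4 ovaries. Over 8 adults the 95% intervals of CORIN, NPR1, NPR3 and PRKG1 by treatment were wider than 2 on the log2 scale.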
